A study of Sus scrofa with 16 samples.

Results

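A set of 7 genes of the pathway by which enterocytes pack absorbed fat into chylomicrons was followed in the small intestine of preterm piglets: the apolipoprotein genes APOC2, APOE, APOA4 and APOA1, the assembly gene MTTP, the triglyceride synthesis gene DGAT1 and the fatty acid binding gene FABP2. They were chosen by name, as 7 of the 6765 genes with a probe set of their own on the array, and 9 of its 23999 probe sets belong to them. All 7 genes had a probe set that passed the filter on dim signals, and 1 of the 9 probe sets, the second of APOE, did not.

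The tissue came from piglets of a Landrace x Large white x Duroc cross, born preterm by caesarean section at a gestational age of 105 days. Antibiotics piglets received Ampicillin, Gentamycin and Metronidazol by mouth and into muscle from birth, and control piglets, named untreated in the sample names, received saline. Both arms were kept on intravenous nutrition, with small enteral feeds, for 3 days and were then fed formula by tube for 2 days, until tissue was taken on day 5. Each of the 4 groups (antibiotics distal, antibiotics proximal, control distal and control proximal intestine) held 4 Affymetrix arrays, and with the number that ends each sample name taken to be the piglet's, the 16 arrays came from 9 piglets, 7 of them with both segments. All groups share preterm birth, formula and bulk intestinal tissue, so that a change in the number of cells and a change in RNA per cell cannot be told apart.

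Chylomicrons are the particles in which the intestine sends dietary fat into the lymph. Fatty acids taken up by enterocytes are bound by fatty acid binding proteins, rebuilt into triglyceride by acyltransferases and loaded by the microsomal triglyceride transfer protein onto apolipoprotein B, after which the particles leave the endoplasmic reticulum in large transport vesicles. Smaller apolipoproteins on the particle's surface decide its later fate: the APOC2 protein activates lipoprotein lipase, which releases the fatty acids to tissues, and the APOE protein is the ligand by which remnants are taken up through receptors of the LDL receptor family. In adult mammals most fat is absorbed in the proximal part of the small intestine, while the distal part reabsorbs bile acids.

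All values are log2 expression values, 1 per probe set and array, with 1 unit standing for a doubling. The values had a floor at 2.14, and a level of 5 was used as the limit of a usable signal. A gene is called changed where limma's test, adjusted over 11538 probe sets, gave a p under 0.05. Of 20 enterocyte markers listed, 12 were annotated, and all 12 lay above the level on every array. So did 7 of 8 annotated smooth muscle markers, so this count does not set enterocytes apart from other cells of the bulk tissue. The level of one probe set cannot be set against that of another, so values are compared only within a gene.

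APOC2 was higher with antibiotics in proximal tissue, and it was higher in distal than in proximal tissue in both arms. APOE was higher, and APOA4 lower, in distal than in proximal tissue of antibiotics piglets. Of the 7 genes, 1 was called between antibiotics and control in proximal tissue, where 0.147% of all probe sets were called, and 0 in distal tissue, where 2.12% were. Between the distal and proximal segments 3 were called with antibiotics, against a background of 5.25%, and 1 in controls, against 0.364%. In distal tissue 3 of the 7 had an unadjusted p under 0.05 for antibiotics against control in limma, as had 1823 of all 11538 probe sets. In proximal tissue 6 of the 7 means were higher with antibiotics and the median difference was 0.94, against -0.06 over 4684 genes. In distal tissue 3 means were higher and 4 lower, with a median of -0.12 against 0.02.

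**Figure D1:**
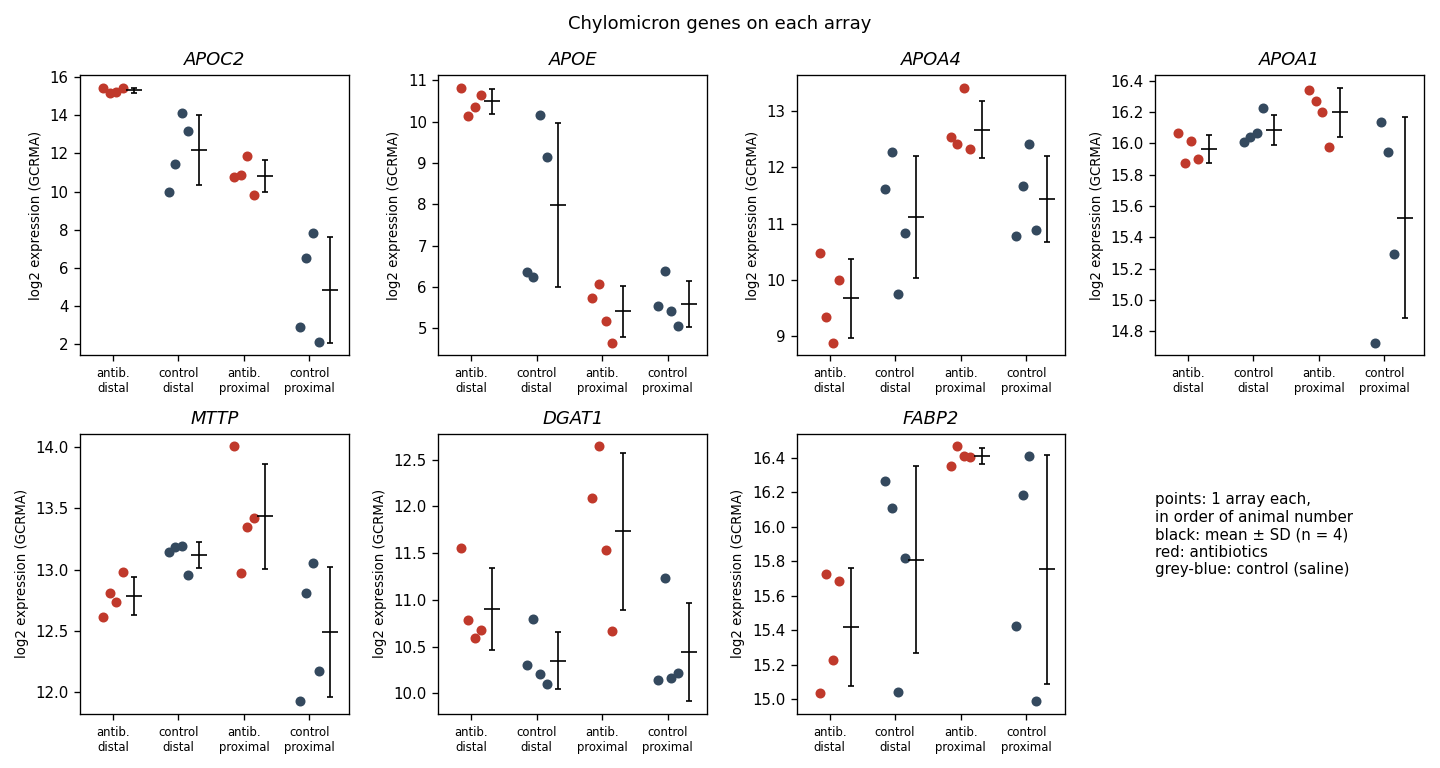
Log2 expression of the 7 genes on all 16 arrays, 1 panel a gene with its own vertical axis; points are arrays, red for antibiotics and grey-blue for control, and black bars give the mean ± SD of 4 arrays. APOC2 lies at 15.16 to 15.44 in antibiotics distal tissue and between 2.14 and 7.82 in control proximal tissue, while the control distal arrays of APOE fall into a pair near 6.3 and a pair above 9.

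APOC2 encodes the cofactor of lipoprotein lipase and differed most of the 7 genes between the arms in both segments. In proximal tissue the antibiotics arrays had values of 10.74, 10.87, 11.87 and 9.83, against 2.88, 6.53, 7.82 and 2.14 on the control arrays. Every antibiotics array lay above every control array, and 2 control arrays, those of piglets 83 and 92, were at or close to the floor. The means were 10.83 ± 0.83 with antibiotics and 4.84 ± 2.76 in controls (SD, n = 4 each), a difference of 5.99 (SE 1.07, limma, adjusted p = 0.0435). With the control values under 5 raised to that level the difference was 4.74, which is a 26.8-fold higher level with antibiotics on this measure. The call was not stable when 1 array was left out. Leaving out each of the 8 arrays in turn gave differences of 5.09 to 6.98 and adjusted p values of 0.00628 to 0.164, and the call held in 3 of 8 such fits. It was lost without antibiotics arrays 86 (6.02, adjusted p = 0.106), 87 (5.97, 0.103) or 95 (5.64, 0.164) and without control arrays 83 (5.33, 0.148) or 92 (5.09, 0.136), and without both of these control arrays the difference was 3.66 (adjusted p = 0.516). These 2 control arrays held the lowest values, so leaving them out had to shrink the difference. Without antibiotics arrays 86 or 87 the difference itself hardly moved. Those fits called 7 and 6 of all probe sets, against 17 with all arrays.

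Distal APOC2 had values of 15.43, 15.16, 15.20 and 15.44 with antibiotics, against 9.97, 11.45, 14.10 and 13.17 in controls. The antibiotics arrays lay within a narrow band above all control arrays, and the control arrays were spread over about 4 log2 units. The difference of 3.13 (SE 1.07) had an adjusted p of 0.154 in limma and did not pass. Set against proximal tissue, APOC2 was higher in distal tissue by 4.48 with antibiotics (SE 1.07, adjusted p = 0.0229) and by 7.33 in controls (SE 1.07, adjusted p = 0.00251), and within each segment comparison all distal arrays lay above all proximal arrays. Raising the low control values to the level of 5 turned the control difference into 6.09. The call in controls held in 8 of 8 fits that left out 1 array, and that with antibiotics in 3 of 8, with adjusted p values of 0.0378 to 0.0603. It was lost without distal array 85 (4.44, adjusted p = 0.0603), 86 (4.52, 0.0550), 87 (4.51, 0.0518) or 95 (4.43, 0.0577) and without proximal array 98 (4.14, 0.0551), with the difference itself little changed. The 4 groups share 1 estimate of the spread. The SD of APOC2 ran from 0.15 in antibiotics distal to 2.76 in control proximal tissue.

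APOE encodes the ligand for remnant uptake, a protein that macrophages and liver also make in quantity. Its values in distal tissue were 10.83, 10.14, 10.36 and 10.65 with antibiotics, against 6.37, 6.25, 10.17 and 9.15 in controls. The controls split: piglet 89 lay within the antibiotics range, piglet 92 about 1 unit below it, and piglets 83 and 88 near the proximal values. Proximal APOE was low in both arms, at 5.73, 6.07, 5.18 and 4.65 with antibiotics and 5.54, 6.37, 5.40 and 5.05 in controls, and the groups overlapped.

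APOE was thus higher in distal than in proximal tissue of antibiotics piglets by 5.08 (SE 0.69, limma, adjusted p = 0.000401), or by 5.00 with the 1 proximal value under 5 raised to that level, and 8 of 8 fits without 1 array kept the call. In controls the distal excess was 2.39 (SE 0.69, adjusted p = 0.238). Antibiotics distal tissue stood above control distal tissue by 2.51 (SE 0.69, adjusted p = 0.0755), and in proximal tissue the difference was -0.18 (SE 0.69). The 8 fits without 1 array gave distal differences between the arms of 1.93 to 3.24, with adjusted p values of 0.0110 to 0.199. Only the fit without control array 89 passed (3.24, adjusted p = 0.0110). That array held the highest control value, so leaving it out had to widen the difference. A second APOE probe set lay at the floor of 2.14 on nearly every array and gave no measurement.

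**Figure D2:**
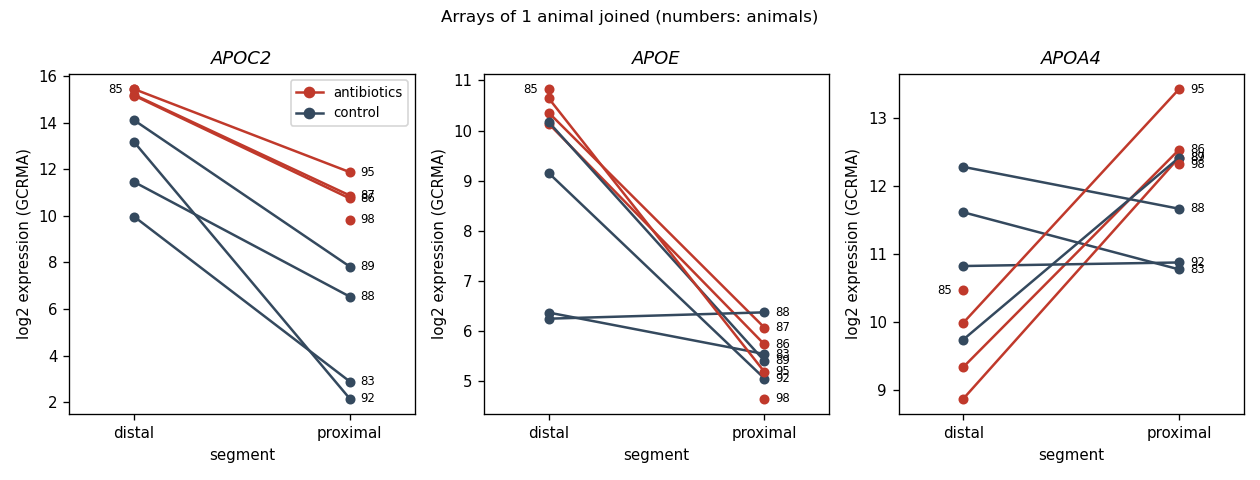
Log2 expression of APOC2, APOE and APOA4 in distal tissue (left) and proximal tissue (right) of each piglet, red for antibiotics and grey-blue for control, with lines joining the 2 arrays of 1 piglet and single points for piglets 85 and 98. APOC2 was higher in the distal array of all 7 paired piglets, APOE was about level in control piglet 88, and APOA4 was lower in the distal array of the 3 paired antibiotics piglets while the control piglets differ in direction.

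APOA4 encodes an apolipoprotein that enterocytes secrete on chylomicrons during fat absorption. In distal tissue its values were 10.47, 9.34, 8.87 and 9.99 with antibiotics, against 11.62, 12.28, 9.74 and 10.82 in controls. In proximal tissue they were 12.54, 12.42, 13.43 and 12.32 with antibiotics, against 10.78, 11.67, 12.42 and 10.88 in controls. The antibiotics arrays were lower in most pairings in the distal segment and higher in most in the proximal one, with overlap between the arms in both.

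With antibiotics APOA4 fell by 3.01 in distal against proximal tissue (SE 0.51, limma, adjusted p = 0.00304), with all 4 distal arrays below all 4 proximal arrays and the call kept in 8 of 8 fits without 1 array. In controls the same difference was -0.32 (SE 0.51, adjusted p = 0.974). Between the arms APOA4 differed by -1.45 in distal tissue (SE 0.51, adjusted p = 0.171) and by 1.24 in proximal tissue (SE 0.51, adjusted p = 0.338), and neither passed.

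APOA1, the main protein of high-density lipoprotein, which the intestine also puts on chylomicrons, also gave signals near the upper end of the scale. Its values in proximal tissue were 16.34, 16.27, 16.20 and 15.98 with antibiotics, against 14.73, 16.13, 15.94 and 15.29 in controls. Control arrays 83 and 92 were the lowest. The difference of 0.67 (SE 0.25, adjusted p = 0.291) did not pass. Without control arrays 83 and 92 it was 0.16, a fall that leaving out the lowest control values had to give. In distal tissue the antibiotics arrays lay at 15.88 to 16.07 and the control arrays at 16.01 to 16.23, a difference of -0.12 (SE 0.25). On the array where it came closest, APOA1 was 0.14 log2 units below the highest value of any probe set, a range in which array signals can be compressed.

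MTTP encodes the transfer protein that loads lipid onto apolipoprotein B. In proximal tissue its values were 14.01, 12.97, 13.35 and 13.42 with antibiotics, against 11.93, 12.81, 13.05 and 12.18 in controls. A single pair of arrays overlapped, antibiotics 87 and control 89, and control arrays 83 and 92 were again the lowest. The difference was 0.94 (SE 0.26, adjusted p = 0.163). Without those 2 control arrays it was 0.50, a fall that their low values fixed. Without control array 88 it was 1.05 and passed (adjusted p = 0.0467), in a fit that called 4.82% of all probe sets. The 8 fits without 1 array gave 0.75 to 1.13, with adjusted p values of 0.0467 to 0.5035. In distal tissue MTTP stood at 12.62, 12.81, 12.73 and 12.98 with antibiotics, against 13.14, 13.18, 13.19 and 12.96 in controls, a difference of -0.33 (SE 0.26, adjusted p = 0.596).

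DGAT1 encodes the acyltransferase of the last step of triglyceride synthesis. In proximal tissue its values were 12.09, 12.64, 11.53 and 10.67 with antibiotics, against 10.14, 11.23, 10.17 and 10.22 in controls. The arms overlapped in 1 pair of arrays, antibiotics 98 and control 88. The difference was 1.29 (SE 0.38, adjusted p = 0.182), and it passed without antibiotics array 98 (1.65, adjusted p = 0.0463) or, in the same fit as MTTP, without control array 88 (1.56, adjusted p = 0.0312). These held the lowest antibiotics and the highest control value, so leaving either out had to widen the difference. The 8 fits without 1 array gave 0.99 to 1.65, with adjusted p values of 0.0312 to 0.504. In distal tissue the values were 11.55, 10.79, 10.59 and 10.68 with antibiotics, against 10.30, 10.79, 10.20 and 10.10 in controls, and the difference of 0.55 (SE 0.38) had an adjusted p of 0.529. In antibiotics piglets distal DGAT1 stood 0.83 below proximal DGAT1 (SE 0.38, adjusted p = 0.274). With the animal as a fixed block this difference was -1.40 and passed (adjusted p = 0.0303), as it did over the animals with both segments (-1.40, adjusted p = 0.0387). Both fits leave out distal array 85 and proximal array 98, which held the highest distal and the lowest proximal antibiotics value. Leaving these out had to widen the difference. A second, dimmer DGAT1 probe set differed by 0.73 in proximal tissue (SE 0.39, adjusted p = 0.466) and by 0.26 in distal tissue (SE 0.39, adjusted p = 0.809).

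FABP2, the intestinal fatty acid binding protein gene, gave signals at the upper end of the scale: its 4 antibiotics proximal values were at most 0.15 log2 units below the highest value on their array, so the differences that rest on them may be compressed. Its values in proximal tissue were 16.35, 16.47, 16.41 and 16.41 with antibiotics, against 15.42, 16.19, 16.41 and 14.99 in controls. The difference of 0.66 (SE 0.32, adjusted p = 0.408) became 0.11 without control arrays 83 and 92. These were the lowest of the controls, so leaving them out had to shrink it. In antibiotics piglets all 4 distal arrays, at 15.04 to 15.72, lay below all 4 proximal arrays, and the difference of -0.99 (SE 0.32) had an adjusted p of 0.0950. In distal tissue the antibiotics arrays overlapped with the control arrays, which lay at 15.04 to 16.27, with a difference of -0.39 (SE 0.32, adjusted p = 0.612).

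**Figure D3:**
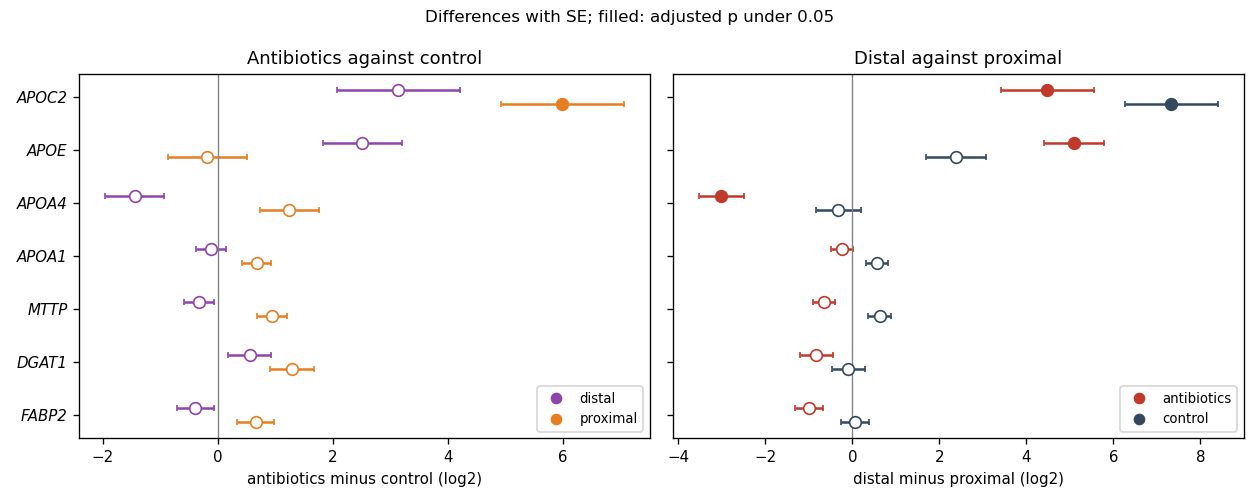
Differences between groups on the log2 scale with their SE for the 7 genes, antibiotics minus control in distal and proximal tissue (left panel) and distal minus proximal in antibiotics and control piglets (right panel), with filled points where the adjusted p was under 0.05. The 5 filled points are APOC2 in proximal tissue (5.99) and, between segments, APOC2 in antibiotics (4.48) and in control piglets (7.33), APOE in antibiotics piglets (5.08) and APOA4 in antibiotics piglets (-3.01).

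The antibiotic effect was also compared between the segments. It was smaller or more negative in distal than in proximal tissue for 6 of the 7 genes, all but APOE, and the median of the differences was -1.05, against 0.09 over 4684 genes. None of the 7 passed, with 5 at an unadjusted p under 0.05 in limma, against a background of 0.191% of probe sets called and 764 of 11538 at an unadjusted p under 0.05. APOA4 had a difference of effects of -2.69 (SE 0.73, adjusted p = 0.281), MTTP one of -1.28 (SE 0.37, adjusted p = 0.325), and APOE one of 2.69 (SE 0.97, adjusted p = 0.559). Without control distal arrays 83 and 88 the APOE value was 1.01 and that of APOA4 was -1.86. Without control proximal arrays 83 and 92 that of MTTP was -0.84. Each pair held the most extreme values of its group for these genes, so the choice of arrays fixed the direction of these changes.

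With 1 mean of both segments per piglet (3 antibiotics and 4 control piglets), 0 of the 7 genes were called, where 0.347% of all probe sets were, and 3 of the 7 had an unadjusted p under 0.05 in limma, as had 1859 of 11538 probe sets. APOC2 differed by 4.71 (SE 0.91, adjusted p = 0.0815), and DGAT1 by 0.99 (SE 0.26, adjusted p = 0.147). Both passed when control piglet 88 was left out (APOC2 with a difference of 4.87 and an adjusted p of 0.0499, DGAT1 with an adjusted p of 0.0321), in a fit that called 3.61% of all probe sets. APOC2 also passed without control piglet 89 (5.52, adjusted p = 0.0174), in a fit that called 0.39%. Piglet 88 held the highest control mean of DGAT1 and piglet 89 that of APOC2, so leaving these out had to widen those differences. Over the 7 fits without 1 piglet the adjusted p was 0.0174 to 0.242 for APOC2 and 0.0321 to 0.361 for DGAT1. APOE differed by 1.23 (SE 0.41, adjusted p = 0.215) and APOA4 by -0.18 (SE 0.34, adjusted p = 0.837).

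Markers of position along the intestine also varied among the control distal arrays, and these did not all point one way. LEAP2, an antimicrobial peptide and hormone gene of the proximal gut, stood at 4.36 to 6.18 in antibiotics distal tissue and at 11.69 to 12.95 in antibiotics proximal tissue. On the control distal arrays it was 12.13 and 11.83 in piglets 83 and 88, in which APOE was low and APOA4 high, and 3.76 and 7.57 in piglets 89 and 92. FABP6, the ileal bile acid binding protein gene, was higher in the same piglets as LEAP2, at 11.03 and 10.17 in piglets 83 and 88, against 7.32 and 6.64 in piglets 89 and 92. GATA4, a transcription factor gene of the proximal intestine, was under the level of 5 on all 8 distal arrays. The part of position in the results was not tested.

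Control distal arrays 83 and 88 were known from earlier results of these data to stand apart, and they hold the lowest APOE and APOC2 values and the highest APOA4 values of their group, so leaving them out must shrink these differences between the arms. Without them the differences between antibiotics and control distal tissue shrank to 1.67 for APOC2 (adjusted p = 0.502), 0.83 for APOE (0.350) and -0.62 for APOA4 (0.594). The distal against proximal difference of APOE in controls was 4.07 without them (adjusted p = 0.000338), a value whose rise the choice of arrays fixes.

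**Figure D4:**
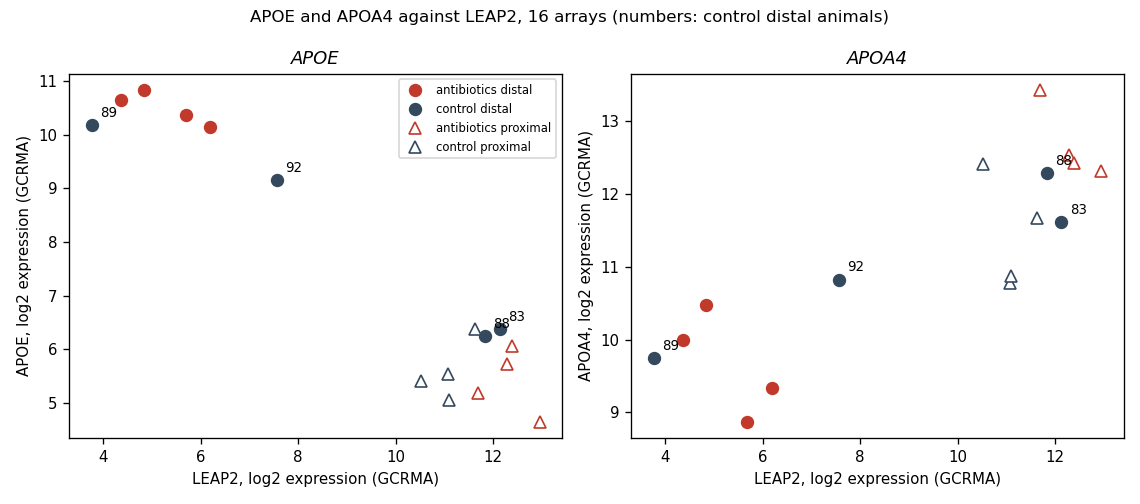
APOE (left) and APOA4 (right) against the proximal marker gene LEAP2 on 16 arrays, all on the log2 scale; filled circles are distal and open triangles proximal arrays, red for antibiotics and grey-blue for control, and numbers name the control distal piglets. Control distal arrays 83 and 88 lie among the proximal arrays, at LEAP2 values of 12.13 and 11.83, while 89 and 92 lie with or near the antibiotics distal arrays.

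The control proximal arrays of piglets 83 and 92, lowest for APOC2, APOA4, APOA1, MTTP and FABP2, differed from those of piglets 88 and 89 in MEP1B and KRT18, 2 of the 12 annotated enterocyte markers, picked after their values were seen. MEP1B, a brush border protease gene, stood at 12.15 and 11.77 against 13.46 and 14.51, and KRT18, a keratin gene of the epithelium, at 10.64 and 11.49 against 8.79 and 9.11. MEP1B was thus lower and KRT18 higher in piglets 83 and 92, so the 2 do not show a common shift of enterocyte markers. The sum over the list, in which the brightest genes weigh most, did not set them apart. It was 16.21 and 16.62 in piglets 83 and 92 against 16.43 and 16.66 in piglets 88 and 89. The summed level of the enterocyte markers was 16 to 16.86 on antibiotics and 16.21 to 16.66 on control proximal arrays. The part of these 2 marker differences in the proximal differences between the arms was not tested.

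Macrophages also make APOE, and their markers were followed beside it. Of 18 macrophage markers 12 were annotated and 8 tested, and in distal tissue all 8 means were lower with antibiotics, 2 of them past the threshold. CD163, a scavenger receptor gene of macrophages, averaged 4.03 ± 0.40 in antibiotics distal tissue and 9.03 ± 1.58 in control distal tissue (SD, n = 4 each). All 4 antibiotics distal values lay under the level of 5. In proximal tissue CD163 averaged 4.81 ± 1.28 with antibiotics and 8.58 ± 1.83 in controls and was not called. The summed level of the list was 13.56 to 13.87 on antibiotics and 14.22 to 14.88 on control distal arrays. That sum mostly follows its brightest gene, CTSS, a protease gene, and does not weigh the markers evenly. CTSS alone lay at 13.46 to 13.79 on antibiotics and 13.89 to 14.69 on control distal arrays. In proximal tissue the sum was 12.89 to 14.06 with antibiotics, a range that holds that of the antibiotics distal arrays, and 13.91 to 14.67 in controls. Among the control distal arrays it was 14.59 and 14.88 in piglets 89 and 92, in which APOE was high, and 14.60 and 14.22 in piglets 83 and 88, in which APOE was low. The part of macrophages in the APOE differences was not tested. Of 12 liver markers 11 were annotated and between 1 and 3 of them lay above the level on an array. The 5′ minus 3′ difference of the control transcripts, a measure of RNA integrity, was -3.94 to -3.48 in antibiotics distal, -3.76 to -3.51 in antibiotics proximal, -3.93 to -3.56 in control distal and -4.41 to -3.35 in control proximal tissue.

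Of the 61 other genes of the pathway that were tested, in 6 lists, 10 (16.4%) were called between the segments of antibiotics piglets, 9 of them lower and 1 higher in distal tissue, where 5.25% of all probe sets were called. Between the segments of controls 1 was called higher and 1 lower (3.28%), where 0.364% of all probe sets were called. Between the arms 1 of 61 (1.64%) was called in distal tissue, near the 2.12% of all probe sets. Of 15 other apolipoprotein genes listed, 4 were tested. In antibiotics piglets APOA2, a high-density lipoprotein component, was lower by 4.04 in distal than in proximal tissue (SE 0.90, adjusted p = 0.0151). In controls that difference was -1.46 and did not pass (SE 0.90, adjusted p = 0.800). APOB, the scaffold of the chylomicron, averaged 15.61 ± 0.14 in antibiotics distal and 14.94 ± 0.53 in antibiotics proximal tissue (SD, n = 4 each), and 0.67 between them did not pass (adjusted p = 0.321). Among 18 assembly and export genes 3 were lower and 0 higher in distal tissue of antibiotics piglets, and 15 of the 18 means were lower, with a list median of -0.32 against 0.08 over all genes. Of all 11538 probe sets 242 were lower and 364 higher in that comparison. The 3 were CIDEB, which promotes lipid loading of lipoproteins (-2.07, adjusted p = 0.0126), and the vesicle coat genes SEC24D (-0.997, adjusted p = 0.0249) and SAR1B (-0.98, adjusted p = 0.0493). In controls 0 of these 18 were called between segments, where 0.364% of all probe sets were called, and 13 of 18 means were higher in distal tissue. Of 11 triglyceride synthesis genes 2 were lower in distal tissue of antibiotics piglets, the acyltransferase genes DGAT2 (-3.13, adjusted p = 0.0241) and AGPAT2 (-2.24, adjusted p = 0.0429).

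Among 11 genes of receptors, lipases and lipid efflux, LCAT, which esterifies lipoprotein cholesterol, was lower by 2.54 in distal tissue of antibiotics piglets (adjusted p = 0.00307). ABCA1, the cholesterol exporter gene, was lower there by 2.32 (adjusted p = 0.0356). ANGPTL4, which encodes an inhibitor of lipoprotein lipase, was the 1 list gene called between the arms. It averaged 7.20 ± 0.41 in antibiotics distal tissue and 9.31 ± 1.03 in control distal tissue (SD, n = 4 each), a difference of -2.11 (SE 0.52, adjusted p = 0.0453), and in controls it was higher in distal than in proximal tissue by 2.57 (SE 0.52, adjusted p = 0.0405). Of 8 other genes of fatty acid uptake and binding FABP6 was called, at least 28.8-fold higher in distal than in proximal tissue of antibiotics piglets (the higher mean over the level of 5, adjusted p = 0.000731). Of 9 transcription regulators GATA4 was called, lower in distal than in proximal tissue both with antibiotics (at least 1.33-fold, adjusted p = 0.00137) and in controls (at least 1.54-fold, adjusted p = 0.00434), with all 8 distal arrays under the level of 5. In proximal tissue 0 of the genes on these 6 lists were called between the arms, where only 0.147% of all probe sets were called. The comparisons share arrays, since each group enters both a comparison of arms and one of segments.

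**Figure D5:**
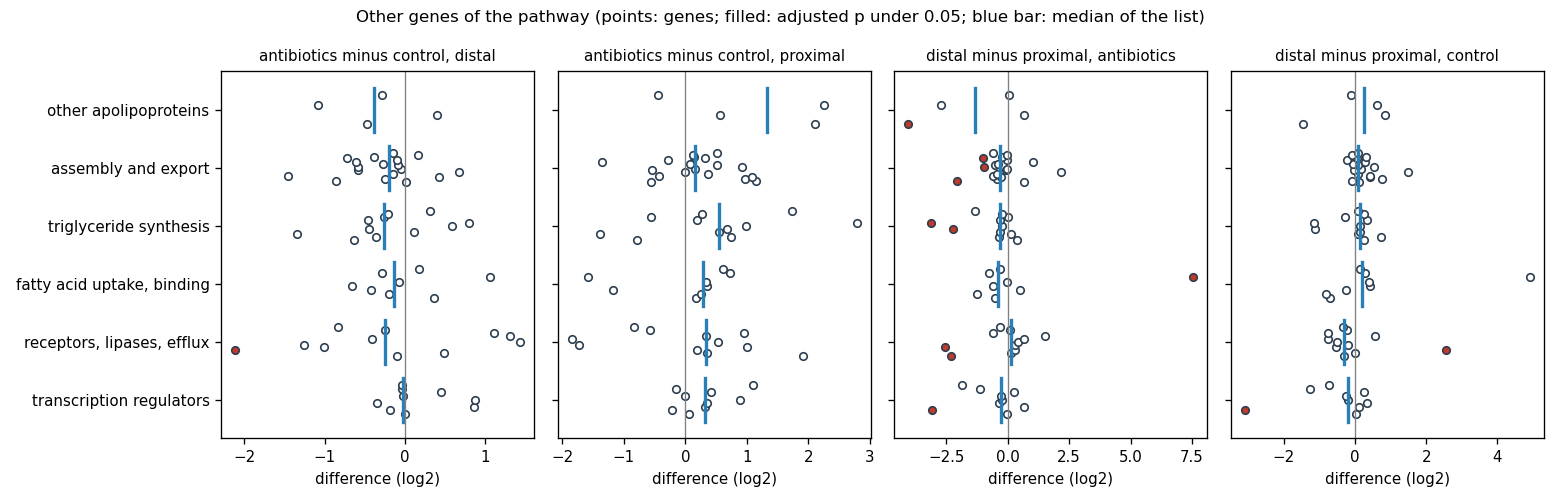
Differences of the other pathway genes on the log2 scale in 4 comparisons, 1 point a gene in 6 lists, filled red where the adjusted p was under 0.05, with blue bars for the median of a list. In proximal tissue the medians of the 6 lists lie between 0.15 and 1.33 for antibiotics minus control with no filled point, and the filled points of the segment comparison in antibiotics piglets lie below 0 except FABP6 at 7.54.

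The genes also varied together over the 16 arrays, which share groups and piglets, so the following correlations describe these arrays. APOE and APOC2, which in the pig lie on chromosome 6 with APOC4 between them, had a Pearson r of 0.775, and of 0.590 after the group means were removed. APOE and APOA4 ran against each other, with an r of -0.821, and of -0.522 within groups. APOA4 and FABP2 had an r of 0.799 (0.647 within groups), and APOA1 and MTTP one of 0.788 (0.660 within groups). APOA4 and APOA1, which lie on chromosome 9 with APOC3 between them, had an r of 0.271.

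For each gene the profile most like its own among the tested genes was sought. The closest to APOE was XPNPEP2, an aminopeptidase gene (r = 0.968), and the closest to APOC2 was PEPD, a dipeptidase gene (r = 0.925). ACAD11, an acyl-CoA dehydrogenase gene, was closest to APOA4 (r = 0.882), FBXW4 to APOA1 (r = 0.883) and LPGAT1, an acyltransferase gene, to MTTP (r = 0.917). DGAT1 was most like SCARB1, the HDL receptor gene (r = 0.904), and next NR1H3, which encodes the oxysterol receptor LXR alpha (r = 0.900). FABP2 was most like APOA2 (r = 0.868), and APOC3, which encodes an inhibitor of lipoprotein lipase, was next but 1 (r = 0.858). Each r is over 16 arrays.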

How the data were processed

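The values the authors deposited are log2 values, 1 per probe set and array. The tools named are GCOS 1.2, GCRMA and limma, per the submitters' processing notes (order and settings: not given in the sources used here). Deposited values were tested without further normalization. Of 24123 probe sets 124 controls were left out, and those above log2 5 on at least 4 of 16 arrays, 11538, were tested. Each gene is represented by the brightest (on average) of the probe sets annotated with it alone (10069 probe sets had 1 gene, 198 several and 13732 none). Group means were fitted over 16 arrays with limma 3.58.1 (lmFit, eBayes, two-sided) in R 4.3.3, with Benjamini-Hochberg adjustment across the tested probe sets. The fit was tested on simulated data drawn independently for each array. That test does not cover the correlation of an animal's arrays or values at the floor. Figures used matplotlib in Python.

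Replicates are piglets by the number in the sample names. Residuals of an animal's 2 arrays correlated at 0.0293 to 0.526, above 0.1 for 5 of 7 animals and highest with its own for 4. The number of arrays limits the precision.

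The members, lists and tests were chosen with earlier results of these data known. Named are the 7 members, up to 4 called genes per list and comparison, and up to 3 genes of like profile per member. LEAP2, FABP6, GATA4, MEP1B, KRT18, CD163, CTSS and APOB were named after their values were seen. Alternatives were other filters and normalizations, array weights, animal blocks, subsets and each array left out. Leaving out control proximal arrays 83 and 92 was added after seeing the data. Neighbouring genes are those of assembly Sscrofa11.1.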

Additional observations from a re-analysis of the deposited data

Results flagged for a closer look

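DGAT1 on the control proximal array of piglet 88 stood at 11.23, against 10.14, 10.17 and 10.22 on the other 3 control proximal arrays, a gap that took most of the range of the group. It was the 1 such value among 28 groups of 4 arrays (7 genes in 4 groups), and a test of this kind marks some groups by chance. The array also had the highest APOE value of the control proximal group, at 6.37, and an FABP6 value of 7.40 where the other 3 lay at 2.32 to 3.49.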

How the results depend on the processing

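Array quality weights raised the number of the 7 genes called to 3 for antibiotics against control in distal tissue, 5 in proximal tissue, 2 for the difference of effects, 5 between the segments of antibiotics piglets and 2 on animal means, while the share of all probe sets called rose to 14.4%, 8.24%, 1.82%, 26.1% and 7.99% in the same order. In proximal tissue the number called was 0 without the filter, with the 8 proximal arrays alone or without control proximal arrays 83 and 92 (an alternative chosen after seeing the data), and 2 over animals with both segments. Between the segments of controls it was 2 without control distal arrays 83 and 88. Leaving out 1 array at a time gave 0 to 1 called in distal tissue, 0 to 3 in proximal tissue, 0 to 0 for the difference of effects, 2 to 3 and 1 to 1 between the segments of antibiotics and control piglets, and 0 to 2 on animal means. APOC2 in proximal tissue had an adjusted p of 0.189 without the filter and 0.264 with the 8 proximal arrays alone. Between the segments of antibiotics piglets it had 0.0941 without the filter and 0.112 over animals with both segments. With the animal as a random replicate block (correlation 0.172) no call changed, and the count between the segments of antibiotics piglets stayed at 3. A fixed block, fitted over the animals with both segments, added DGAT1 (-1.40, adjusted p = 0.0303). That fit leaves out distal array 85 and proximal array 98, which had to widen the DGAT1 difference. The fixed block changed no other call between segments or for the difference of effects, and it cannot test the arms.

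Signs turned only for differences that did not pass. DGAT1 between the segments of controls was 0.00619 with the mean of all probe sets. APOE in proximal tissue was 0.0688 over animals with both segments. FABP2 between the segments of controls was -0.322 without control distal arrays 83 and 88, the highest of their group. It was -0.490 without control proximal arrays 83 and 92, the lowest of theirs. With 1 array or animal left out, APOE in proximal tissue ranged over -0.404 to 0.0756, FABP2 between the segments of controls over -0.198 to 0.313, APOA4 there over -0.707 to 0.140, DGAT1 there over -0.239 to 0.173, and APOA4 on animal means over -0.484 to 0.0549. The cause of these shifts was not tested. Over all alternatives, with the highest value always that of the array weights, the number of probe sets called ranged over 106 to 1665 in distal tissue, 0 to 951 in proximal tissue, 9 to 210 for the difference of effects, 353 to 3008 and 25 to 80 between the segments of antibiotics and control piglets, and 1 to 922 on animal means.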
